A study of Caenorhabditis elegans with 4 samples.

Results

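The regions described here are the places on the X chromosome of Caenorhabditis elegans where the transcription factor LSY-2 gave a peak in chromatin immunoprecipitation and sequencing (ChIP-seq). They were chosen by position alone. All X rows of the 3 deposited peak lists were taken, and rows that overlapped by 1 bp or more were merged. This gave 366 regions on X of 1926 in the genome. They came from 166 X peaks of 884 in replicate 1, 195 of 1033 in replicate 2 and 360 of 1910 in the combined list. The study held 2 LSY-2 ChIP libraries and 2 input libraries, numbered 1 and 2, and the input libraries were not analysed here. All 4 came from hermaphrodites at the L4 larval stage, the last before adulthood, of strain OP240, grown at 20 degrees on the bacterium HB101. The strain carries the allele unc119(ed3) and the transgene wgIs240, in which lsy-2 is joined to TY1, EGFP and FLAG tags and unc119 serves as the rescue gene. The transgene was made by recombineering, was introduced by bombardment and was outcrossed 3 times, per the labels. The tagged protein was collected from formaldehyde-fixed whole larvae with a goat antibody to GFP. No sample of a strain without the tag was used here, so sequence that is enriched without LSY-2 was not told apart.

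LSY-2 is a zinc finger protein of the C2H2 type. Genetic screens identified it as a factor needed for the left and right ASE taste neurons to differ, and it lies upstream of lsy-6, a microRNA gene. The X chromosome of the worm has features of its own. Hermaphrodites carry a pair of X chromosomes, and a condensin-based dosage compensation complex binds along both and lowers their transcription to the level of the single X of males. The X is poor in genes expressed in the germline. Its gene density also varies less between middle and ends than that of the autosomes, whose gene-rich centres lie between repeat-rich arms. The lsy-2 gene itself is annotated on chromosome X in RefSeq (assembly WBcel235). The peak coordinates follow another build, WormBase WS180, so the peaks were not assigned to genes or sequence. A peak from whole larvae also does not say which cells it came from, and binding in fewer cells and weaker binding per cell cannot be told apart.

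Strength is given as −log10 of the q value assigned to each peak by PeakSeq, the authors' peak caller, so that a higher value is a stronger call. The q value mixes enrichment with library depth, which is unknown. Nothing states that the 3 lists share a scale, so values set side by side between lists describe the lists. X peaks had a median strength of 8.23 for replicate 1 (quartiles 5.25 and 13.4), 7.17 for replicate 2 (4.95 and 13.2) and 6.98 for the combined list (4.80 and 15.1). The median peak width was 660.5, 675 and 617.5 bp, in the same order. Peaks covered 0.130 Mb of X in replicate 1, 0.156 Mb in replicate 2 and 0.289 Mb in the combined list, which is 0.738%, 0.882% and 1.64% of its 17.6 Mb span. The span runs from base 1 to the end of the last listed peak. X made up 17.6% of the summed spans of the 6 chromosomes and held 18.8%, 18.9% and 18.8% of the peaks of the 3 lists.

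The share of strong peaks on X was close to that of the whole lists. A q below 1e-10 was given to 61 X peaks in replicate 1 (36.7%, exact Clopper-Pearson 95% interval 29.4 to 44.6; 36.4% of the peaks of all chromosomes). In replicate 2 it was given to 70 (35.9%, 29.2 to 43.1; 36.3% over all chromosomes), and in the combined list to 132 (36.7%, 31.7 to 41.9; 36.3% over all chromosomes). Among the best 200 peaks of each list, X held 37 in replicate 1, 37 in replicate 2 and 42 in the combined list. The intervals, here and below, treat each peak or region as independent and reflect counting error alone.

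These shares over all chromosomes include X, here and below. The regions fell into support classes according to the lists that held a peak there. All 3 lists supported 134 of the 366 regions (36.6%, 95% interval 31.7 to 41.8; 37.7% over all chromosomes). The combined list alone supported 159 (43.4%, 38.3 to 48.7; 43% over all chromosomes), which made this the most numerous class. Replicate 2 and the combined list shared 45 regions (12.3%, 9.11 to 16.1; 12.7% over all chromosomes), and replicate 1 and the combined list shared 21 (5.74%, 3.59 to 8.64; 5.4% over all chromosomes). Both replicates without the combined list held 1 region (0.312% over all chromosomes). Replicate 1 alone held 1 (0.156%) and replicate 2 alone held 5 (0.675%). In all 7 classes the interval for X included the share over all chromosomes, so the mix of support on X could not be told from that of the genome at these counts.

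Among the 4 classes with over 5 regions, width and strength were highest where all 3 lists held a peak. The median width there was 932 bp (quartiles 723 and 1332), and the median −log10 q was 9.07 for replicate 1, 9.56 for replicate 2 and 18.6 for the combined list. Regions of replicate 1 and the combined list had a median width of 539 bp, with 4.59 in replicate 1 and 6.48 in the combined list. Those of replicate 2 and the combined list had 613 bp, with 4.63 in replicate 2 and 6.37 in the combined list. Regions of the combined list alone were the narrowest of the 4 large classes, at 459 bp (quartiles 335.5 and 642), and the weakest, at a median −log10 q of 4.79 (4.09 and 5.70). A region near a list's threshold is easily missed by another list and a wide one is easily overlapped, so this order describes the lists and no test was made of it.

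**Figure D1:**
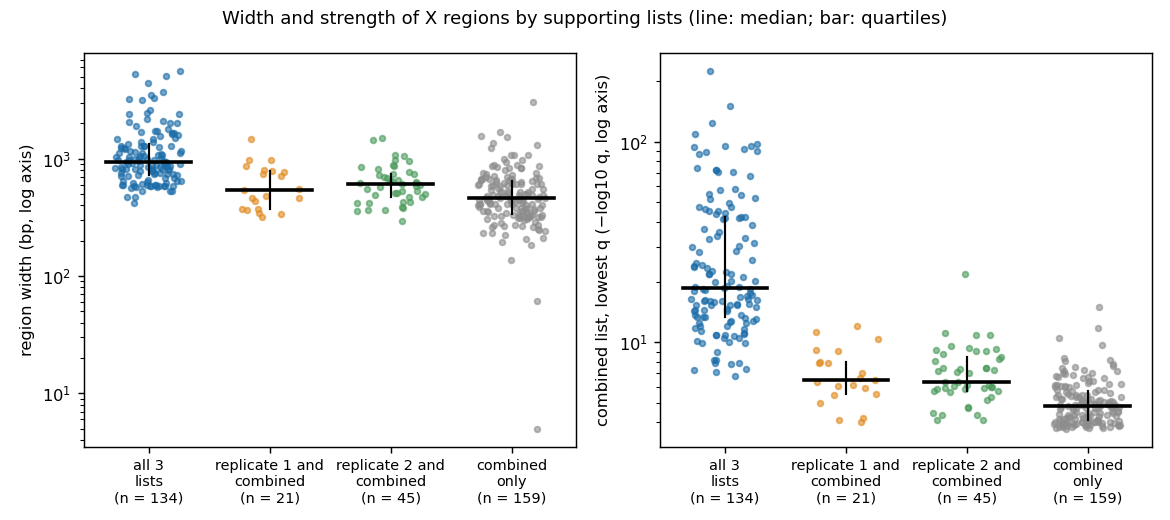
Width of each X region (left, bp, log axis) and the −log10 q of its strongest peak in the combined list (right, log axis), for the 4 support classes with over 5 regions. Each point is a region, lines are medians and bars are quartiles; the median width falls from 932 bp in all 3 lists to 459 bp in the combined list alone, and the median −log10 q from 18.6 to 4.79.

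The pair of strongest X regions stood well apart from the rest, and both lay near the right end of the chromosome. At X 15840377 to 15842803, replicate 1 gave a −log10 q of 155, replicate 2 gave 163 and the combined list 225. At X 16929260 to 16931956, replicate 1 gave 145 and replicate 2 gave 187. This region was absent from the combined list, whose nearest peaks lay 131962 bp before and 29366 bp after it. It is the 1 X region that both replicates held and the combined list did not. The autosomes also had such regions, 1 on I, 2 on III, 1 on IV and 1 on V. Those of IV and V, and 1 of the 2 on III, had the highest values of their chromosome in each replicate. In replicate 1 they gave 265 on IV, 211 on V and 221 on III. In replicate 2 they gave 289, 235 and 274, in the same order. That of I was weaker, with 45.5 in replicate 1 and 22.8 in replicate 2, and the other on III was weaker still. 

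In the region at X 15840377, the lists drew the peak differently. Replicate 1 had a single peak from 15840619 to 15841914, and replicate 2 a single peak from 15840377 to 15842802. The combined list had a strong peak from 15840465 to 15841952 and, to the right of it, a weak peak from 15842188 to 15842803 with a −log10 q of 4.92. This is the only X region in which the combined list had more than 1 peak.

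The values of the next regions were lower in both replicates. At X 2242385 to 2243636, ranked 3 on X in each replicate, replicate 1 gave a −log10 q of 74.9, replicate 2 gave 86.6 and the combined list 124. At X 11603371 to 11607051, ranked 4 in each replicate, these values were 59.4, 73.1 and 151. At X 8035615 to 8036990, ranked 5 in replicate 1 and 7 in replicate 2, they were 51.7, 64.7 and 109.

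Another 10 regions completed the 15 with the best mean rank. At X 2996240 to 2997735, replicate 1 gave a −log10 q of 45.2, replicate 2 gave 68.6 and the combined list 92.2. In the same order the values were 47.4, 67.7 and 95.7 at X 11093637 to 11094630, and 49.7, 58.7 and 97.3 at X 4208418 to 4209964. All 3 were higher in replicate 2 than in replicate 1. The remaining 7 began at 14525315, 1503521, 6295888, 16056018, 12362580, 9465385 and 13143339, with replicate 1 values of 30.2 to 50.8 and replicate 2 values of 37.7 to 57.9. Ranks within X differed between replicates by 6 places at most among the 15. Their choice by mean rank limits such differences, so this is not a measure of agreement. Replicate 2 had the higher value in 14 of the 15, the exception being X 13143339 to 13145934, where replicate 1 gave 38.8 and replicate 2 gave 37.7. Among all pairs of overlapping replicate peaks, replicate 2 had the higher value in 64.9% on X and 66.8% over all chromosomes. The combined list held 14 of the 15, each with a higher −log10 q than either replicate.

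The 15 were not gathered in a particular part of X. The middle 50% of the span held 7 and the outer parts held 8. Of the 15, 12 had no other region's midpoint within 10 kb and 3 had one. Among all 135 X regions with a peak of each replicate, 63 had one (46.7%), as did 191 of all 366 X regions (52.2%). The difference was not tested. The widths of the 15 ran from 860 to 3681 bp with a median of 1376 bp, against 888 bp for the other 120 regions with a peak of each replicate. In each list wider X peaks tended to have the lower q, so a choice by rank favours wide regions.

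The replicates agreed on X about as often as over the genome. In replicate 1, 144 of 166 X peaks were overlapped by a replicate 2 peak (86.7%, 95% interval 80.6 to 91.5; 87.4% over all chromosomes). In replicate 2, 144 of 195 were overlapped by a replicate 1 peak (73.8%, 67.1 to 79.9; 74.1% over all chromosomes). These overlaps made 148 pairs of peaks. The overlap of a pair had a median of 610.5 bp and was at least 22 bp, and the midpoints of paired peaks lay a median of 63.5 bp apart (quartiles 26.2 and 124.5). In 132 pairs (89.2%) each peak was covered by the other over at least 50% of its width. No interval was identical between any 2 of the 3 lists on X.

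Agreement was higher among better-ranked peaks. The best 80 X peaks of replicate 1 were all overlapped by replicate 2, and the strongest one that was not, ranked at 81, had a −log10 q of 8.38. It lay in the region at X 14840720 to 14841527. In replicate 2 the strongest unshared peak was ranked at 62 with a value of 11.3, in the region at X 11464115 to 11465621, where the combined list gave 22.0. Of X ranks 121 to 160, 65% were shared in replicate 1 (95% interval 48.3 to 79.4) and 52.5% in replicate 2 (36.1 to 68.5). A peak near a list's threshold is easily missed by the other list, so this fall with rank describes the lists. Shares by rank were measured on X alone, so they do not set X apart from other chromosomes.

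Over the 148 pairs, Spearman's rho of −log10 q between replicates was 0.86, which describes peaks of 1 pair of libraries that share neighbourhoods. Replicate 2 had the lower q in 96 pairs (64.9%, 95% interval 56.6 to 72.5; 66.8% over all chromosomes), with a median difference, replicate 2 minus replicate 1, of 1.23 units of −log10 q (quartiles −0.58 and 3.90). Its peak was the wider in 88 pairs. Among regions with a peak of each replicate, the largest shifts in rank were 45 places. At X 1010577 to 1011517, replicate 1 gave a −log10 q of 8.51 and replicate 2 gave 4.94. At X 4246264 to 4247300 the values were 4.50 and 8.36, so the shifts ran in opposite directions. Their ranks among the 135 regions with a peak of each replicate were 75 and 120 for the former and 124 and 79 for the latter.

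**Figure D2:**
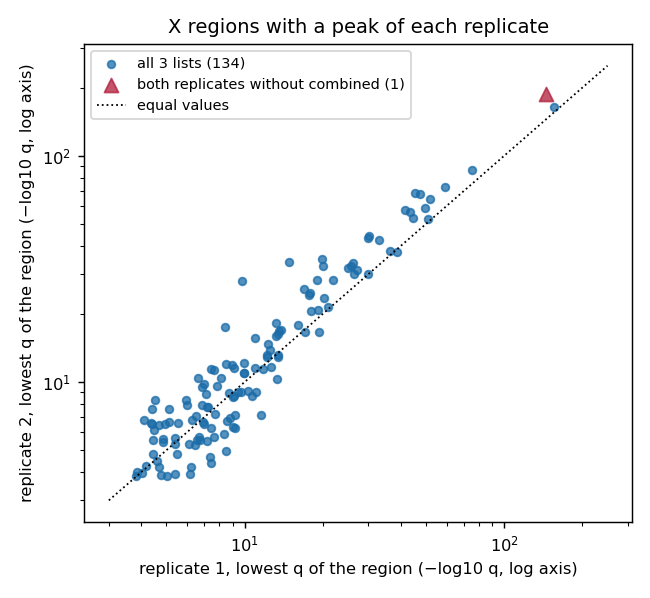
Strength of the 135 X regions with a peak of each replicate: −log10 of the lowest q in replicate 1 (horizontal, log axis) and in replicate 2 (vertical, log axis). Circles are the 134 regions that the combined list also held, the triangle is the 1 it lacked, and the dotted line marks equal values; the 2 strongest regions lie alone at the upper right, with values of 145 to 187.

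Where each list had a single peak, the combined list gave the lowest q. There were 123 X regions with exactly 1 peak in each of the 3 lists. In all 123 the combined list had the lowest q, and in 102 it had the widest peak, with a median width of 861 bp against 651 bp in replicate 1 and 684 bp in replicate 2. The combined −log10 q was 0.96 times the sum of the replicates' values at the median (quartiles 0.87 and 1.08, range 0.60 to 1.51). The same median was 0.97 on V, 0.94 on IV, 0.93 on III and 0.88 on II, and stood at 1.18 on I. X lay between IV and V in this order, and the differences were not tested.

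The regions that a single list held were mostly weak, with some exceptions. The 6 that came from 1 replicate without the combined list reached a −log10 q of 4.004 at most, at X 11546605 to 11547089 in replicate 2. The strongest region of the combined list alone was X 6519297 to 6522359, with a −log10 q of 15.1. Its width of 3063 bp compares with a median of 459 bp in its class, and it had no other region within 10 kb. It was followed by X 4960383 to 4961311 with 11.8 and by X 8016979 to 8018214 with 10.5. The combined list also held 3 X peaks under 150 bp wide, where the replicate lists held 0. The narrowest of them, X 2044764 to 2044768, spans 5 bp. On the autosomes the replicate lists also held peaks under 150 bp. The narrowest there was 111 bp in replicate 1, on V, 10 bp in replicate 2, on II, and 2 bp in the combined list, on III.

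Broad regions were mostly stretches that the replicate lists held as several peaks and the combined list as 1. On X, 10 regions (2.73%) were 3000 bp or wider. On the autosomes this share ran from 0.838% on IV to 3.23% on I. The combined list gave each of the 10 as 1 peak, while in 9 of them a replicate had more than 1 peak. The middle 50% of the span held 8 of the 10, against 182 of all 366 X regions (49.7%; 59% over all chromosomes). Some of these wide regions are near neighbours, and the difference was not tested.

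The widest region was X 11480674 to 11486246 at 5573 bp, where the −log10 q of the strongest peak was 10.9 for replicate 1, 15.7 for replicate 2 and 47.3 for the combined list. The next was X 6740422 to 6745735 at 5314 bp, where replicate 1 had 2 peaks and replicate 2 had 3. Its strongest peaks reached 19.9, 35.1 and 88.9, in the same order. A region at X 8018451 to 8023517 spanned 5067 bp, also from 2 and 3 replicate peaks, with 12.5, 13.8 and 58.0. In these 3 the combined value exceeded the sum of the strongest replicate peaks.

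Next in width, at 4436 bp, was X 11470369 to 11474804, with strongest peaks of 14.8 for replicate 1, 34.0 for replicate 2 and 70.5 for the combined list. Replicate 2 gave it as 1 peak and replicate 1 as 2. It lies in the same group of close regions as the widest region. Among all X peaks, wider peaks tended to have the lower q: Spearman's rho between width and −log10 q was 0.66 for replicate 1, 0.67 for replicate 2 and 0.69 for the combined list, as a description across peaks of 1 chromosome.

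Along X the regions were spread over the whole span. The first lay at X 59241 to 59424 and the last at X 17631621 to 17631939, and both came from the combined list alone. The 17 whole bins of 1 Mb held 20.7 ± 6.03 regions (SD over bins), from 9 to 32. The fullest were the bins ending at 5000000 with 32 regions, at 15000000 with 31 and at 16000000 with 28. The emptiest was the bin ending at 10000000 with 9 regions, followed by the leftmost bin of the chromosome with 14. The bin ending at 5000000 also had the most regions with a peak of each replicate, 14, and the bin ending at 4000000 just before it had the fewest, 3. Across the whole bins, the count of regions in both replicates and the count in the combined list alone had a Spearman's rho of 0.24, given as a description over neighbouring bins.

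The middle 50% of the X span held 182 of the 366 regions (49.7%, 95% interval 44.5 to 55.0; 59% of the regions of all chromosomes lay in the middle of their own span). This was the lowest share of the 6 chromosomes. The autosomal shares were 73.1% on V (67.5 to 78.2), 63.9% on I (58.2 to 69.2), 62.7% on III (57.4 to 67.8), 56.6% on II (50.4 to 62.6) and 51.7% on IV (46.4 to 57.0). The intervals of V, I and III lay above that of X, while those of II and IV overlapped it. Neighbouring regions are not independent and no test of the difference was made.

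The support classes of X did not separate in their central share beyond their intervals. It was 44.8% for regions in all 3 lists (95% interval 36.2 to 53.6), 51.1% for replicate 2 and combined (35.8 to 66.3), 52.4% for replicate 1 and combined (29.8 to 74.3) and 52.2% for the combined list alone (44.1 to 60.2). All 4 intervals overlapped and included 50%. In steps of 10% of the span, X ranged from 12.5 regions per Mb at 50 to 60% to 31.2 at 80 to 90%. The 5 autosomes pooled were lowest at 80 to 90%, with 11.04 per Mb, and highest at 40 to 50%, with 27.3. X was also fullest at 80 to 90% for regions with a peak of each replicate, at 11.9 per Mb.

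**Figure D3:**
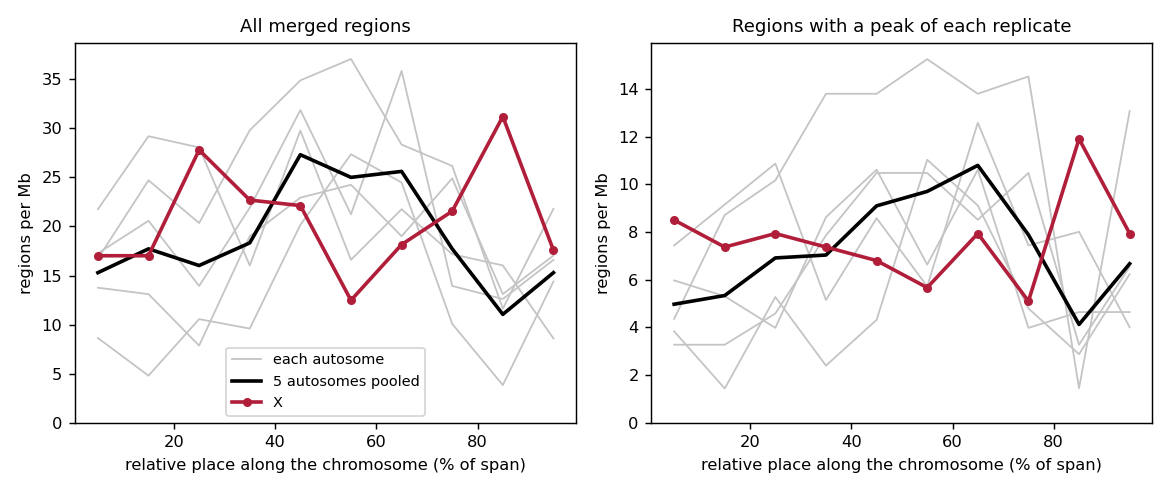
Merged regions per Mb (left) and regions with a peak of each replicate per Mb (right) in steps of 10% of the chromosome span, for X (red), each autosome (grey) and the 5 autosomes pooled (black). On the left, the pooled autosomes are highest at 40 to 50%, with 27.3 per Mb, while X is lowest at 50 to 60%, with 12.5, and highest at 80 to 90%, with 31.2.

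Strength showed no common order along X. In steps of 25% of the span from left to right, the median −log10 q of replicate 1 was 8.80, 7.72, 7.17 and 8.71, and that of replicate 2 was 9.09, 6.64, 6.68 and 6.80. The combined list had 7.49, 6.17, 8.09 and 6.37. The order of the 4 parts differed from list to list, and their interquartile ranges overlapped within each list.

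Spacing was uneven at short range. The gap between neighbouring regions had a median of 24201 bp on X (quartiles 5249 and 60458), and 33 of the 365 gaps were under 1000 bp. The longest stretch without a peak of any list was 478 kb, from X 3128245 to 3605769, within the bin with the fewest regions in both replicates. The next were 294 kb from X 9637642 to 9932135, in the emptiest bin, and 294 kb from X 59425 to 353174, next to the first region. They were followed by 281 kb from X 1627506 to 1908686 and 275 kb from X 6793014 to 7068326. In such a stretch no peak passed the threshold of any list, and the depth behind those thresholds is unknown.

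With another midpoint within 10 kb counted as close, 191 of the 366 X regions were close to another (52.2%, 95% interval 46.9 to 57.4; 58.4% over all chromosomes). X had the lowest such share of the 6 chromosomes, followed by II with 53.2% (47.0 to 59.3), and III had the highest with 66.5% (61.2 to 71.4). Among regions with a peak of each replicate the X share, 21.5% (14.9 to 29.4), was also the lowest, and those of the autosomes ran from 29.0% on IV to 42.7% on III. The X interval overlapped those of I, II and IV but not those of III and V, and the difference was not tested. X had 20.8 regions per Mb and 7.66 per Mb with a peak of each replicate, against 25.1 and 10.9 on III, the chromosome with the highest density of both.

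**Figure D4:**
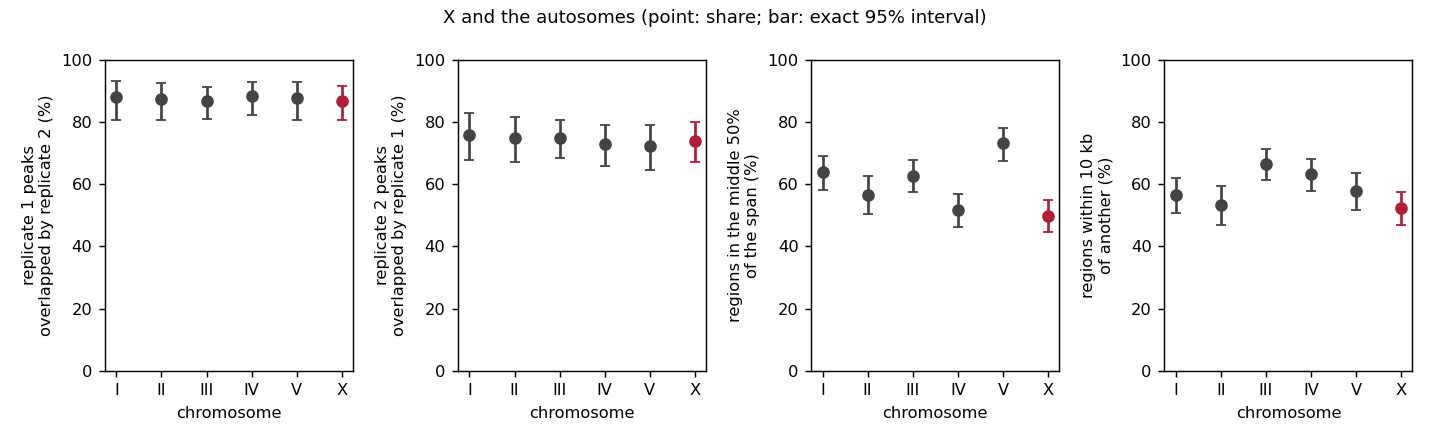
Share of replicate 1 peaks overlapped by replicate 2, of replicate 2 peaks overlapped by replicate 1, of merged regions in the middle 50% of the span, and of merged regions within 10 kb of another (all in %), for X (red) and each autosome (grey); bars are exact Clopper-Pearson 95% intervals. The overlap shares are alike on all 6 chromosomes, while X has the lowest share in the middle, 49.7%, and the lowest share of close regions, 52.2%.

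The close regions formed 35 pairs, 16 groups of 3, 10 of 4, 3 of 5 and 3 of 6. The 16 groups of 4 or more held 73 regions over 5.81 to 22.7 kb each. Such groups numbered 17 on III, 11 on V, 10 on IV and 9 each on I and II. Only III thus had more of them than X, although X had the lowest share of close regions. Every one of the 16 groups on X held at least 1 region with a peak of each replicate, and in 9 it was exactly 1. Of the 73 regions, 27 had a peak of each replicate (37.0%, against 36.9% of all 366 X regions) and 29 came from the combined list alone (39.7%, against 43.4%), so the make-up of these groups was near that of all X regions.

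The groups of 6 lay at X 4960383 to 4982569, X 11464115 to 11486246 and X 15353478 to 15375448. The group at 11464115 holds the widest X region and the strongest unshared peak of replicate 2, and 3 of its 6 regions had a peak of each replicate. In the group at 4960383 the highest −log10 q was 6.46 for replicate 1, 6.51 for replicate 2 and 15.3 for the combined list. In the group at 15353478, 1 region of 6 had a peak of each replicate, and the highest values were 13.8, 16.9 and 31.5.

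The groups of 5 lay at X 1443408 to 1457062, X 4137493 to 4148371 and X 14810429 to 14819742. In the last of these, 1 region with strongest peaks of 25.03 for replicate 1, 31.8 for replicate 2 and 51.8 for the combined list stood among 4 that came from the combined list alone. The tightest group of 4 or more was X 3111159 to 3116968, with 4 regions in 5.81 kb. Another region, X 3127386 to 3128244, lies between it and the longest empty stretch of the chromosome. The group with the highest combined −log10 q, 88.9, was X 6737222 to 6750654, which holds the region of 5314 bp described above and 3 regions with a peak of each replicate.

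The distance from regions of the combined list alone to regions that both replicates held was also measured. Of the 159 on X, 49 had their midpoint within 10 kb of such a region (30.8%, 95% interval 23.7 to 38.6; 28.2% over all chromosomes), and the median distance was 34745 bp. For X regions in all 3 lists, the median distance to the nearest other region of both replicates was 36636 bp, and 29 of 134 (21.6%) lay within 10 kb. On the autosomes pooled, 27.6% (24.3 to 31.2) of the regions of the combined list alone and 34.9% (31.1 to 38.9) of those in all 3 lists lay within 10 kb of such a region. Of the single autosomes, only IV had the higher share in the combined list alone, as X did, with 31.2% and 28.5% in the same order. The others went the opposite way, with 26.9% and 30.9% on I, 18.5% and 32.4% on II, 36.8% and 41.9% on III, and 22.4% and 39.6% on V. No difference was tested.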

How the data were processed

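LSY-2 ChIP-seq of 2 libraries was deposited as 3 peak lists, 1 per library and 1 combined. Per the file headers, coordinates follow WormBase WS180, and the lists name PeakSeq as caller. The deposited value of each peak is a q value. How reads were aligned, which control and threshold PeakSeq used, and how the combined list was made are not stated in these files or labels (not given in the sources used here), and depth is unknown. Nothing in the labels says whether the 2 libraries came from separate cultures.

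X rows of all lists were merged when they overlapped by 1 bp or more, and a region's strength in a list is that of its lowest q. Positions are 1-based midpoints or intervals as deposited. Shares have exact Clopper-Pearson 95% intervals, and no chance test was made. Named regions are the 15 with the best mean replicate rank, the 5 widest, the 5 longest gaps, groups of 4 or more, the strongest 3 of each partial class, the largest rank differences, the ends, extreme bins and split regions. Some were left out for length, and statements on narrow peaks, wide regions and 10% steps were chosen after values were seen. The members, rules and comparisons were chosen with earlier results of these data known. Overlap and merging were tested on simulated data. Intervals were computed with SciPy 1.17.1 and NumPy 2.4.6 under Python 3.11.15, and figures drawn with matplotlib 3.10.9. Sequences and genes were not used here, since no genome of the peaks' build was at hand.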

Additional observations from a re-analysis of the deposited data

How the results depend on the processing

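Of 42 alternatives for 9 results on X, 22 left the value within its interval, within 1.5 times a count or within the replicates' spread. The other 20 were counted as moved. They include both alternatives for Spearman's rho, which had no limit set and were counted as moved whatever their value. Stricter overlap (50% of each peak) gave 79.5% shared in replicate 1 and a Spearman's rho of 0.89. The better-ranked 50% of each list gave 80.9% shared in replicate 2, 170 regions, 72 in all 3 lists, a median width of 894 bp, 32.9% close regions, 9.64 regions per Mb and a rho of 0.84. Fewer peaks enter by construction, and the cause of the other changes was not tested. The best 200 peaks gave 91.9% shared in each replicate. Without the combined list, 213 regions remained. Without 1 replicate, the number of regions ranged from 362 to 365, the median width from 617.5 to 627 bp, the central share from 49.2% to 49.6%, the close share from 51.7% to 51.8% and the density from 20.5 to 20.7 per Mb. The combined list alone gave 617.5 bp. Regions with a peak of each replicate gave 934 bp, 44.4% central, 21.5% close and 7.66 per Mb. Limits of 5 and 20 kb gave 36.6% and 67.5% close. No paired analysis was possible because the input libraries, numbered 1 and 2 like the ChIP libraries, were not analysed here. The lists hold no read counts, so a missing peak may be one just under an unknown detection limit.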
